A study of Caenorhabditis elegans with 2 samples.

Results

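Across the genome of Caenorhabditis elegans embryos, 405 binding peaks of the transcription factor UNC-62 sat in dense clusters, 106 of them. They were taken from the authors' list of peaks that passed an irreproducible discovery rate (IDR) step, which held 2754 peaks on build ce11, 2732 of them on the nuclear chromosomes. The members were chosen by the positions of the summits alone. A peak was called clustered when at least 3 other summits of that list lay within 10 kb of its own summit, and clustered peaks within 10 kb of each other were merged into 1 cluster. Peaks within 20 kb of the unc-62 gene, which the transgene of the strain carries as well, were left out. This removed 18 peaks, 17 of which had 3 or more neighbours. Of the 2714 peaks outside unc-62, 14.9% were clustered. The peaks set against them here are the 1068 isolated ones, with no other summit within 10 kb, and 1241 peaks with 1 or 2 neighbours lie between.

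The data came from chromatin immunoprecipitation with sequencing of whole mixed-stage embryos, pooled male and female, in 1 group of 2 biological replicates with no second condition. The embryos were of strain OP600, which carries unc119(ed3) and the transgene wgIs600. That transgene encodes UNC-62 with a TY1, EGFP and FLAG tag and carries unc119 besides. The labels give the antibody as unc-62 and describe the target as the tagged protein. Whether untagged UNC-62 also contributed to the peaks cannot be told apart, and embryonic cell types and stages cannot be told apart in them. The depth of the libraries is unknown.

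UNC-62 is a TALE-class homeodomain protein that belongs to the Meis/Prep family. Proteins of this family bind DNA together with PBC-class homeodomain partners (in worms, CEH-20 and CEH-40 among others) and with Hox proteins. Hox proteins are the factors that set positional identity along the body axis. The Meis core site reads TGACAG, and joint PBC-Hox sites commonly contain TGATTGAT or TGATTTAT. Regulatory elements of developmental genes in animals often lie in long non-coding stretches upstream of a gene or in its introns, and several separate elements can act on the same gene.

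The sequences below show what such summits look like at the level of bases, each from a named cluster, and there from the strongest peak clear of exons that carried any of the 4 motifs printed in capitals. They are 101 bases long, centred on the summit, read 5′ to 3′ on the + strand of the ce11 reference from NCBI RefSeq. Capitals mark every match on either strand to TGACAG, TGATTGAT, TGATTTAT or GAGAGA, a GA repeat, so that a run of TCTC in capitals is the repeat on the other strand and overlapping matches merge into 1 run.
The first peak lies 145 bp upstream of tlp-1, at chrIV:13704177-13704277, and has the Meis core.
tlp-1 peak: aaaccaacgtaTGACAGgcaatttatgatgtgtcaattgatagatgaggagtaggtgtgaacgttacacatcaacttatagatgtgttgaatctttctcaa
The next is in an intron of Y111B2A.12, at chrIII:12612650-12612750, again with the Meis core.
Y111B2A.12 peak: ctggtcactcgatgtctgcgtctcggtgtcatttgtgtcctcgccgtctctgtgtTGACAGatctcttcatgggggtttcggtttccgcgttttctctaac
A peak in an intron of M03F4.6, in the cluster of peaks at the actin gene act-4, holds both a PBC-Hox type site and the Meis core, at chrX:4965727-4965827.
act-4 cluster peak: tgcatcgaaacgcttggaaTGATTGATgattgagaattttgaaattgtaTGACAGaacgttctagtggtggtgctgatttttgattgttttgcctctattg
Between ipla-2 and vab-15, at chrX:9841030-9841130, both PBC-Hox type sites occur in the same window.
vab-15 cluster peak: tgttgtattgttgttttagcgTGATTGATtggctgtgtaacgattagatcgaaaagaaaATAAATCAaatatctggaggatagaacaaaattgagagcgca
An intron of prkl-1 holds the PBC-Hox type site alone, at chrIV:6984570-6984670.
prkl-1 peak: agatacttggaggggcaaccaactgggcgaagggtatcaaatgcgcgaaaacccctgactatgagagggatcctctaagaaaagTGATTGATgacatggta
GA repeats without any of the other motifs are shown by the peak upstream of egl-27 at chrII:6825892-6825992, the peak between rho-1 and zip-7 at chrIV:16498141-16498241, and the peak upstream of sma-9 at chrX:10766236-10766336.
egl-27 peak: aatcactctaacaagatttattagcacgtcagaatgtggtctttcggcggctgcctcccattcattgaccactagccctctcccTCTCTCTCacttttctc
rho-1 and zip-7 peak: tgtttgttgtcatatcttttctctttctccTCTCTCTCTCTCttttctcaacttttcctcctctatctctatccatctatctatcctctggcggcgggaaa
sma-9 peak: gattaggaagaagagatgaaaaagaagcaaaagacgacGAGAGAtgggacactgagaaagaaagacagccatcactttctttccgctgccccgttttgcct

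Most clusters were small. The clusters of 4 peaks, 37 of them, were the commonest, 18 held 5 and 13 held 6 or more. A further 23 held a single clustered peak, whose neighbours did not themselves meet the rule. The 68 clusters with at least 4 peaks took in 348 of the 405 clustered peaks. Over the 83 clusters of 2 peaks or more the median distance from the first to the last summit was 7470 bp, and the longest was 35131 bp. All clusters together spanned 697013 bp, which is 0.695% of the nuclear genome. Neighbouring summits within a cluster were a median of 1723 bp apart, with quartiles of 1063 and 3082.5 bp. Of these 299 gaps, 16 (5.35%) were shorter than 400 bp, so a small number of neighbours may be parts of 1 broad region. The rule had many members near its threshold: 218 clustered peaks (53.8%) had exactly 3 neighbours, with a median signal of 104, while 490 peaks with exactly 2 lay just outside, with a median of 98.5.

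**Figure D1:**
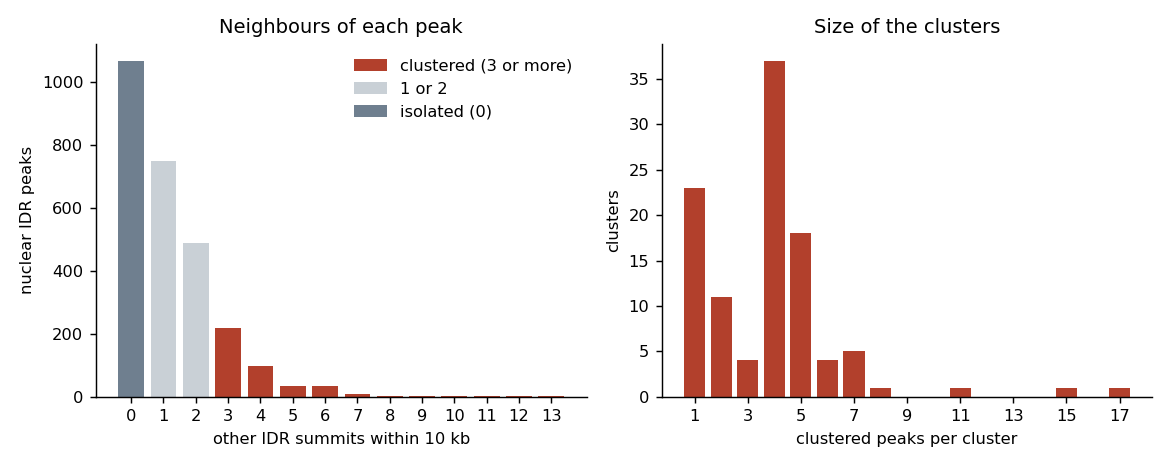
Left, the number of nuclear IDR peaks outside unc-62 (y axis) by the number of other IDR summits within 10 kb (x axis), with peaks called clustered in red, peaks with 1 or 2 neighbours in light grey and isolated peaks in dark grey. Right, the number of clusters (y axis) by the number of clustered peaks they hold (x axis); 37 clusters held 4 peaks and the largest held 17.

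The largest cluster lay at egl-27, on chromosome II, with 17 clustered peaks over 27034 bp. The gene encodes a worm relative of the MTA proteins of the NuRD chromatin complex and is known for its role in embryonic patterning. In the cluster, 11 summits lay upstream of the egl-27 start, as far as 13715 bp away, 5 lay in introns of the gene, and the last lay 203 bp inside the start of the next gene, tbc-6, at chromosome II 6848327. The summits 13715 and 12488 bp upstream were closer to the start of snt-1, the gene on their other side, at 10330 and 11557 bp. The strongest peak was 11570 bp upstream of egl-27, with a signal of 357 in the IDR list, 217 in replicate 1 and 134 in replicate 2. Signal is the value the authors' peak caller gave each peak, and it can be compared within a list only. The weakest peak of the cluster had a signal of 63.2 in the IDR list, 41.2 in replicate 1 and 16.2 in replicate 2, 8116 bp upstream. The strong peaks were mostly the distant ones. The 4 summits between 9066 and 12488 bp upstream had IDR signals of 245.5, 357, 203 and 264, and the 3 nearest upstream of the start had 77.9, 71.9 and 76.3. Inside the gene, the intron summit 722 bp past the start stood at 202 in the IDR list, 135 in replicate 1 and 60.4 in replicate 2, below only the 4 strongest upstream peaks in the IDR list. TGACAG was present at 4 of the 17 summits and GAGAGA at 8.

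The next largest cluster covered the Hox genes lin-39 and ceh-13 on chromosome III, with 15 clustered peaks over 35131 bp. The gene lin-39 acts in the mid-body and ceh-13, of the labial class, in the anterior embryo. Of the summits, 3 lay in introns of lin-39 and 1 lay 97 bp upstream of its start, with IDR signals of 143, 125, 155 and 88.3. Replicate 1 gave these 4 peaks signals of 89.9, 79.0, 97.8 and 75.1, and replicate 2 gave 47.6, 42.8, 57.5 and 16.4, so the peak at the start was the lowest of the 4 in both replicates. Between the genes, 6 further summits lay from 1267 to 17243 bp upstream of lin-39. The strongest of those, at 269 in the IDR list, 173 in replicate 1 and 99.5 in replicate 2, was 6552 bp upstream of ceh-13. The 2 strongest peaks of the cluster flanked ceh-13. The summit 736 bp upstream of its start had a signal of 430 in the IDR list, 270 in replicate 1 and 164 in replicate 2. The summit 4376 bp downstream of its start, past the end of the gene and 2136 bp upstream of the ion channel gene lgc-12, had 638 in the IDR list, 381 in replicate 1 and 256 in replicate 2. The microRNA gene mir-231 lay between the Hox genes, with a summit 250 bp upstream of it that had a signal of 128.9. At lin-39 and ceh-13 TGACAG was found at 3 summits, 2 of them beyond the end of lin-39 and 1 in its intron, and at neither of the 2 strongest.

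A cluster of 11 peaks over 29628 bp around tlp-1 on chromosome IV had the highest median signal of the 12 clusters of most peaks. The gene tlp-1 encodes a zinc finger protein known for asymmetric cell fates and the shape of the tail. The median IDR signal of its peaks was 331, against 148 at egl-27 and 128.9 at lin-39 and ceh-13. The top peak, whose sequence opens the series above, had a signal of 618 in the IDR list, 415 in replicate 1 and 202 in replicate 2. The summit 582 bp upstream of C47A4.1 had 486 in the IDR list, 273 in replicate 1 and 210 in replicate 2, and was the strongest of the cluster in replicate 2. All 11 overlapped a peak among the 2732 strongest of each replicate's list. The summits with IDR signals of 377.8 and 350.5 fell in the same peak of replicate 2, at 154.1, so these 2 are not separate there. TGACAG was present at 4 of these summits, GAGAGA at none. The span of the cluster held 138 annotated piRNA genes, out of 199 over all clusters.

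**Figure D2:**
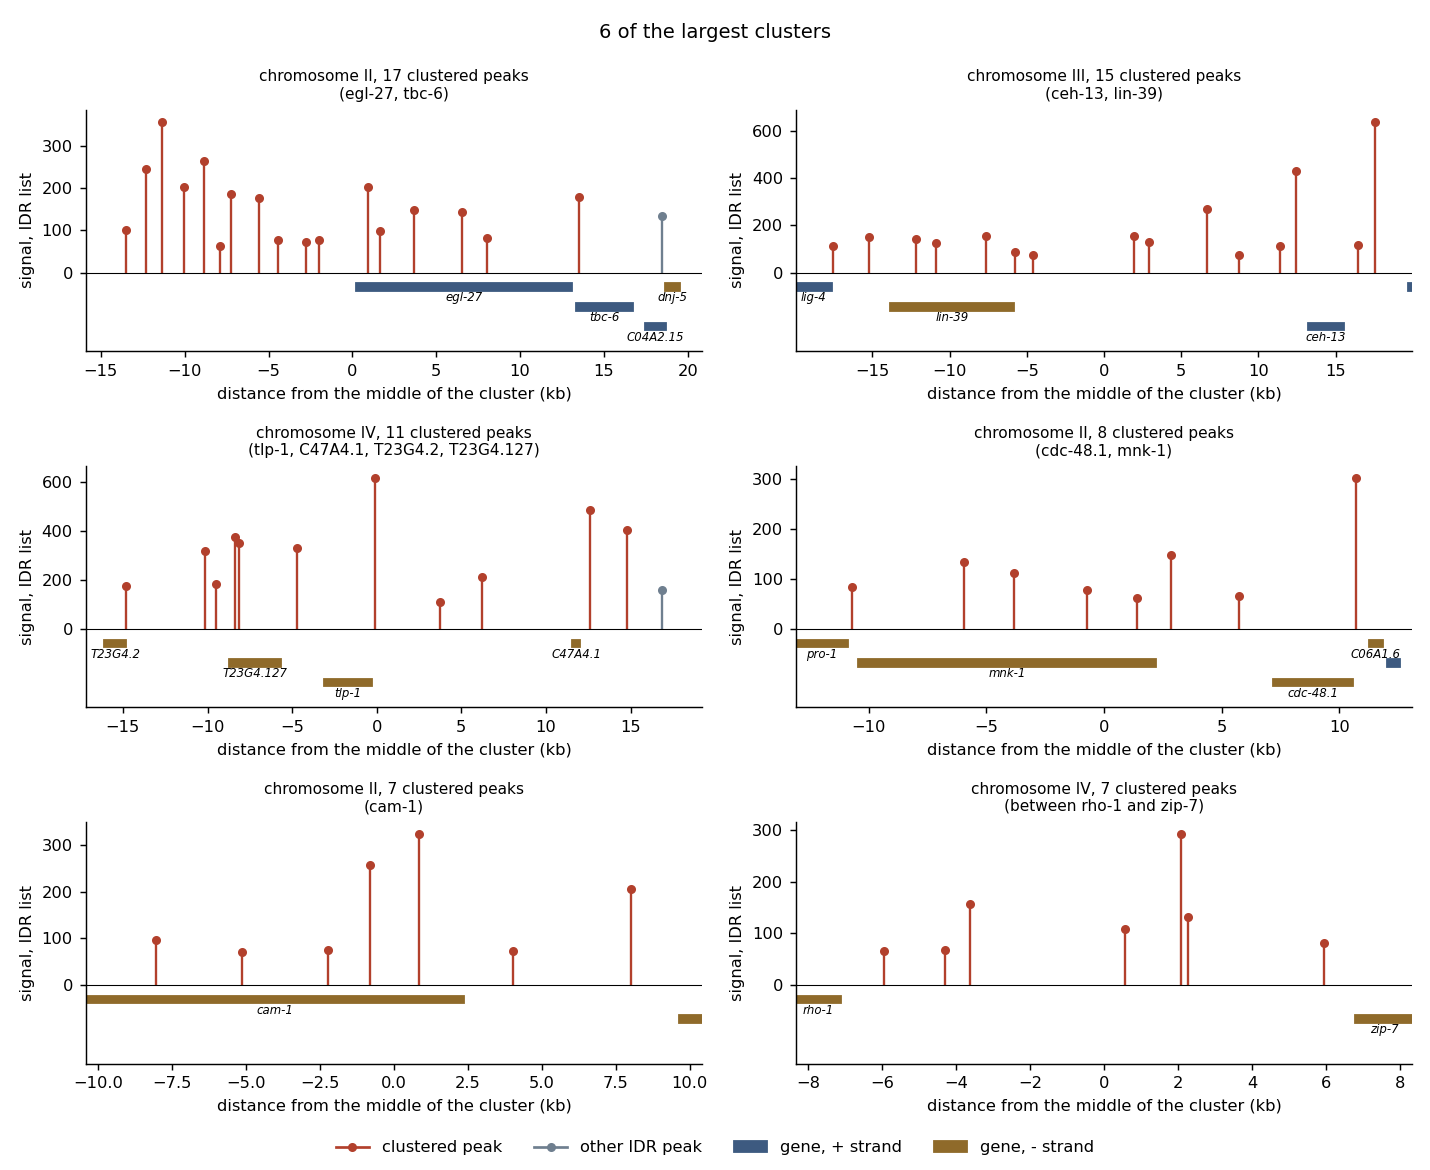
Peaks along 6 of the largest clusters, with the distance from the middle of the cluster in kb on the x axis and the signal in the IDR list on the y axis. Each line is a peak summit, red for clustered peaks and grey for other IDR peaks; bars underneath are protein-coding genes, blue for the + strand and brown for the - strand. The egl-27 summits reach 13715 bp upstream of the gene, the 2 strongest peaks of the lin-39 and ceh-13 cluster flank ceh-13, and most cam-1 summits are inside the gene.

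Other large clusters differed in where they sat relative to their genes. At cam-1 on chromosome II, the gene of the Ror receptor tyrosine kinase that binds Wnt ligands, 5 of 7 summits were in introns. The strongest was 1544 bp past the start, with a signal of 323 in the IDR list, 237 in replicate 1 and 91.0 in replicate 2, where the summit 3200 bp past the start was higher, at 97.8. At lsy-22 on chromosome I, related to the Groucho corepressors, all 7 summits were in introns, from 1864 to 9085 bp past the start. The strongest of these had 221 in the IDR list, 142 in replicate 1 and 80.8 in replicate 2. The 7 summits between rho-1, a small GTPase gene, and the bZIP factor gene zip-7 on chromosome IV were all intergenic, from 1163 to 13034 bp upstream of rho-1. GAGAGA was present at all 7 of them, and the strongest had a signal of 292 in the IDR list, 199 in replicate 1 and 99.8 in replicate 2. The cluster at cdc-48.1 and mnk-1 on chromosome II, genes of a p97 ATPase and a protein kinase, had 8 peaks. In that cluster the peak 148 bp upstream of cdc-48.1 stood at 302 in the IDR list, 190 in replicate 1 and 110.5 in replicate 2. The other 7 had IDR signals between 61.9 and 148, so a single peak at a gene start stood above the remainder. This cluster had 3 clustered summits instead of 8 without replicate 1.

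The nuclear hormone receptor gene nhr-3 on chromosome X had 7 clustered peaks. The strongest, 1877 bp past the start, had a signal of 224 in the IDR list, 131 in replicate 1 and 95.1 in replicate 2. Another summit of the IDR list 2080 bp past the start fell in the same peak of replicate 2, so these 2 summits are not separate there. The nhr-3 cluster had 4 clustered summits without replicate 1. Such sharing was rare: 4 of the 405 clustered peaks shared a peak of replicate 1 with another clustered peak, and 8 shared a peak of replicate 2. It touched several named clusters. In replicate 1 the sharing summits were those at mab-5 with IDR signals of 213.8 and 90.57, and those between rho-1 and zip-7 with 292.4 and 131. In replicate 2 they lay at nhr-3, tlp-1, unc-70 and act-4, the last with IDR signals of 105.8 and 100.1. At cki-2, which with its neighbour cki-1 encodes cyclin-dependent kinase inhibitors, 4 of 6 summits lay upstream, the strongest 1995 bp away with 221 in the IDR list, 137 in replicate 1 and 89.2 in replicate 2. The cki-2 cluster had 3 clustered summits instead of 6 without replicate 2. The F58H1.5 cluster on chromosome V had 7 peaks with a highest IDR signal of 160. Its strongest summit was 10652 bp upstream of F58H1.5 and 5116 bp past the start of F58H1.6, which was the nearest gene start. That summit had 91.4 in replicate 1 and 63.9 in replicate 2, and without replicate 2 the cluster had 4 clustered summits.

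The third Hox gene with clustered peaks was mab-5, on chromosome III, which acts in the posterior body. Of its 6 summits 4 were in introns, 1 lay 897 bp upstream of the start and 1 lay 7221 bp upstream. The strongest, 2807 bp past the start, had 214 in the IDR list, 103 in replicate 1 and 113 in replicate 2. The summit at the start had 102 in the IDR list, 57.9 in replicate 1 and 42.4 in replicate 2, lower than the strongest intron peak in both replicates. TGATTTAT was found at 2 of the intron summits and TGACAG at none. Another homeobox gene, vab-15 of the Msx class, had 6 summits within 14819 bp upstream of its start, but not all were nearest to it. The farthest lay beyond the neighbouring gene ipla-2, 1168 bp upstream of rrc-1, and another lay 282 bp upstream of ipla-2. The strongest of the 6, 6195 bp from vab-15 and 3041 bp from ipla-2 on its other side, had 148 in the IDR list, 94.9 in replicate 1 and 53.1 in replicate 2.

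The 5 clusters with the strongest single peaks included the Hox and tlp-1 clusters and 3 smaller ones. In an intron of Y111B2A.12, 3411 bp past the start, the summit had a signal of 552 in the IDR list, 372 in replicate 1 and 184 in replicate 2. The other 4 peaks of that cluster, which begins 219 bp upstream of epc-1, a homologue of Enhancer of Polycomb, ran from 94.9 to 151 in the IDR list. The cluster at oops-1 on chromosome IV had only 2 clustered peaks, with the stronger at 496.5 in the IDR list, 291 in replicate 1 and 205 in replicate 2, and 1 clustered summit without replicate 1. At sma-9, the gene of a Schnurri-type zinc finger protein of BMP signalling, the summit 2996 bp upstream had 485 in the IDR list, 343 in replicate 1 and 147.5 in replicate 2. Its 3 neighbours ranged from 78.9 to 177.

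Genes of Wnt signalling and of cell migration appeared besides cam-1. Clustered peaks were assigned to 5 of the 32 genes in that list (15.6%) and isolated peaks to 5 (15.6%). Over all protein-coding genes the shares were 0.891% and 6.16%. Those of the list with clustered peaks were cam-1, dsh-1 (Dishevelled), prkl-1 (Prickle), lin-18 (a Ryk-type receptor) and mig-13 (a transmembrane protein of neuroblast migration). The signals there were moderate. The strongest peak at prkl-1 was 4338 bp upstream, with 111 in the IDR list, 73.9 in replicate 1 and 37.3 in replicate 2. The strongest at dsh-1 lay in an intron 2379 bp past the start, with 122 in the IDR list, 69.8 in replicate 1 and 48.7 in replicate 2. The replicates did not share these strongest peaks. In replicate 1 the dsh-1 summit 3509 bp upstream was highest, at 94.6, and in replicate 2 the prkl-1 summit 1486 bp upstream was highest, at 59.7. The prkl-1 cluster had 2 clustered summits instead of 5 without replicate 2. The strongest at mig-13 was 2295 bp upstream, with 183 in the IDR list, 113 in replicate 1 and 73.0 in replicate 2. The lin-18 cluster held 1 clustered peak, in an intron, with 130 in the IDR list, 71.9 in replicate 1 and 55.6 in replicate 2.

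Muscle genes had 5 of 42 members with clustered peaks (11.9%), beside 0.891% of all protein-coding genes. Isolated peaks were assigned to 14 of the 42 (33.3%), beside 6.16%. The 5 with clustered peaks were the actin genes act-1, act-3 and act-4, the calponin-like gene cpn-3 and deb-1, the vinculin gene. At act-4 on chromosome X a summit lay 42 bp upstream of the start with 73.9 in the IDR list, 56.4 in replicate 1 and 14.7 in replicate 2. Another lay in its intron 1300 bp past the start with 88.6 in the IDR list, 56.9 in replicate 1 and 34.8 in replicate 2. The intron summit and the one in the adjoining gene M03F4.6 each held TGACAG and TGATTGAT. Around act-1, act-2 and act-3 on chromosome V, 4 summits had IDR signals of 62.8, 77.4, 104 and 121. The lowest, 200 bp upstream of act-3, was weak in replicate 2, with 56.8 in replicate 1 and 9.85 in replicate 2. At cpn-3 a summit lay 78 bp upstream of the start with 69.5 in the IDR list, 49.4 in replicate 1 and 18.5 in replicate 2. Without replicate 1, the cpn-3 cluster had 0 clustered summits instead of 4.

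The spans of the clusters overlapped 4 of 261 annotated microRNA genes (1.53%): mir-1, mir-231, mir-58a and mir-4929. The spans overlapped 0.536% of protein-coding genes, 2.02% of snoRNA genes, 1.295% of piRNA genes and 3.28% of genes annotated as ncRNA, so the microRNA share lay within the range of these classes. Both mir-1, which is expressed in muscle, and mir-58a, of the bantam-related family, lay in clusters of 4 peaks. With the strongest peaks of replicate 1 alone (without replicate 2), the mir-1 cluster had 0 clustered summits. A summit lay 579 bp upstream of mir-1 with 62.8 in the IDR list, 37.5 in replicate 1 and 28.0 in replicate 2, and the strongest of that cluster, 2352 bp upstream of mir-1 and 86 bp upstream of T09B4.3, had 185, 135 and 56.7 in these lists. Around mir-58a, in an intron of Y67D8A.2, summits lay 457 bp upstream and 458 bp downstream of its start, with IDR signals of 74.8 and 86.7. The summit 301 bp upstream of mir-4929 had 280 in the IDR list, 195.5 in replicate 1 and 98.3 in replicate 2. Because the annotation places a host or neighbouring protein-coding gene beside each, a peak cannot be ascribed to the microRNA rather than to that gene.

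A summit was assigned to the protein-coding genes whose start window held it (from 1000 bp upstream to 500 bp downstream of the outermost start) or whose body contained it, and otherwise to the gene of nearest start. Under that rule clustered peaks belonged to 178 of 19973 genes (0.891%) and isolated peaks to 1231 (6.16%), and 2 genes were in both. An isolated peak has no other summit within 10 kb, so the choice of peaks left little room for a gene with both kinds. Of the 178 genes, 78 were assigned a clustered summit through their start window, and for all genes 6.18% had any nuclear IDR summit in that window. The first share is high by the way genes were assigned, so the figures are not compared. In the lists of gene families, 3 of 6 Hox genes had clustered peaks, with lin-39 and ceh-13 in the same cluster, and none had an isolated one. The 98 homeobox genes, which include the Hox genes, had 4 with clustered and 8 with isolated peaks. Nuclear hormone receptors had 1 of 274 with clustered peaks (nhr-3) and 30 with isolated peaks. The bHLH list had 2 of 40 with clustered peaks (hif-1 and hlh-2) and 6 with isolated ones. GATA factors had 1 of 11 (elt-1) with clustered and 1 with isolated peaks, and forkhead genes had 1 of 15 (unc-130) and 2. Of 20 T-box genes 0 had clustered and 1 had isolated peaks, and of 5 Sox genes 0 had either. Axon guidance genes had 4 of 20 with clustered peaks, the Robo receptor gene sax-3, the Eph receptor gene vab-1, the semaphorin gene smp-1 and madd-2, and 4 with isolated peaks.

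Families with other functions are set beside these, read against the 0.891% and 6.16% of all genes. Ribosomal protein genes had 1 of 83 with clustered peaks (rpl-32) and 24 with isolated peaks. Muscle genes had 14 of 42 with isolated peaks, beside the 5 with clustered ones. The Wnt list had 5 of 32 with clustered peaks and 5 with isolated peaks. Collagen genes had 3 of 175 (dpy-2, dpy-10 and col-99) and 6 with isolated peaks, and histone genes 1 of 50 (his-24) and 7. Chemoreceptor genes had 1 of 1305 and 11, and F-box genes 1 of 315 and 5. Genes of a cluster share its peaks, so neighbours such as act-1 and act-3 or dpy-2 and dpy-10 are not separate observations.

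Clustered peaks lay in gene introns more often and at gene starts less often than isolated peaks. Of clustered summits 80 of 405 (19.8%, 95% interval 16 to 24) fell in the start window of a protein-coding gene, against 496 of 1068 isolated summits (46.4%, 43.4 to 49.5). The odds ratio was 0.284 (0.213 to 0.375) with an adjusted p of 5.13e-21 by a two-sided Fisher's exact test. Intron summits made up 37.3% (32.6 to 42.2) of clustered and 22.2% (19.7 to 24.8) of isolated peaks, an odds ratio of 2.08 with an adjusted p of 4.04e-08 by the same test. Intergenic summits made up 60.2% (55.3 to 65.0) and 72.6% (69.8 to 75.2), an odds ratio of 0.573 with an adjusted p of 1.84e-05. Of the nuclear genome, 26.4% lies in start windows, 33.1% in introns and 37.3% between genes, so clustered summits were under the genome share at starts and isolated summits above it. These are intervals and p-values over peaks, adjusted by the Benjamini-Hochberg method over 8 sequence and position features of which 4 (50%) passed 0.05. They cover counting error only, not the spread between embryo cultures, and peaks of 1 cluster are not independent. With 1 peak per cluster the start difference remained (20.8% of 106, odds ratio 0.302, exact test adjusted p = 1.52e-06), as did the intron difference (odds ratio 2.04, adjusted p = 0.00457). The intergenic difference did not pass (odds ratio 0.650, exact test adjusted p = 0.144).

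The share at gene starts was lower in each successive group of neighbour number. It was 46.4% with no neighbour, 38.1% with 1, 29.8% with 2, 21.6% with 3, 20.6% with 4 and 14.4% with 5 or more, although the intervals of the last 3 groups overlap. The share in introns had no such order, at 22.2%, 29.7%, 38.8%, 32.1%, 49.5% and 36.7% over the same groups. Clustered summits lay a median of 2397 bp from the closest gene start, and isolated summits 1029.5 bp. Clustered peaks in introns lay in genes of a median length of 12901 bp, against 9926 bp for isolated ones. Clustered peaks between genes lay in gaps of a median of 7423 bp, against 3139 bp for isolated ones. These medians are over peaks, so a gene or gap counts once for each of its peaks. The gene egl-27, itself 12901 bp long, holds 5 of the clustered intron summits. The cluster spans overlapped 107 protein-coding genes in whole or in part, or 153.5 per Mb of span. The nuclear genome held 199 whole ones per Mb, an unlike count, so these 2 figures are not compared. The lengths of host genes and of gaps thus moved with the start difference, and their part in that difference was not tested.

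**Figure D3:**
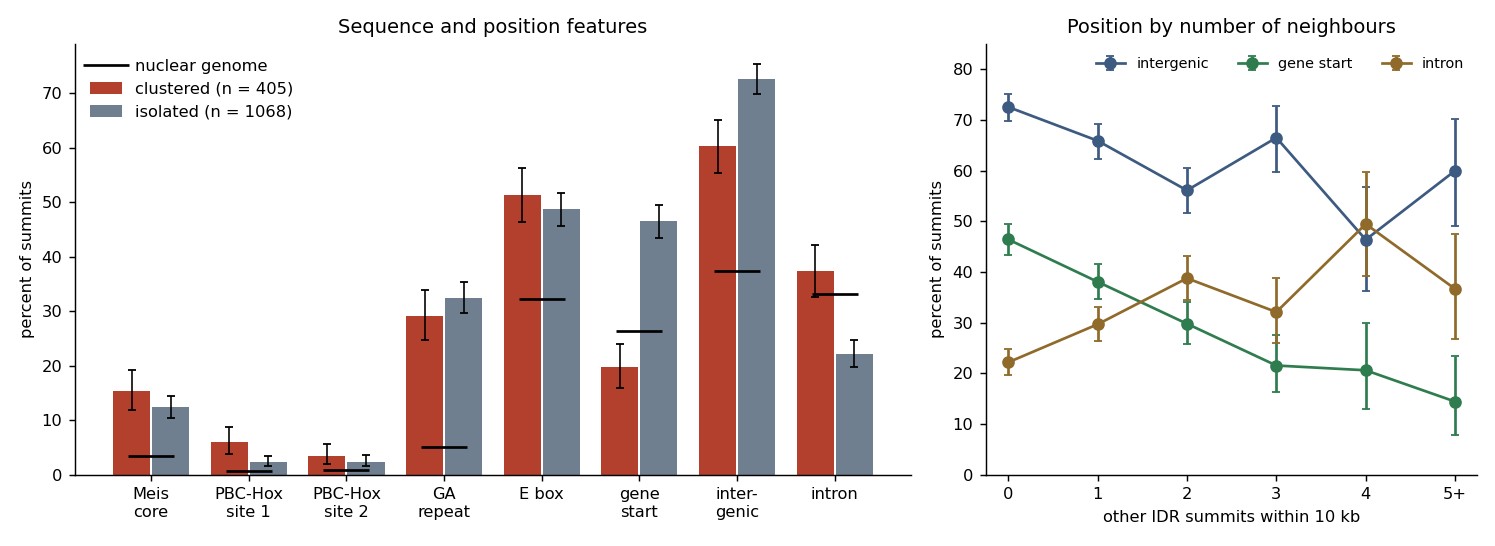
Left, the percent of summits (y axis) with each motif within 50 bp, or at each kind of position, for 405 clustered peaks (red) and 1068 isolated peaks (grey), with 95% exact binomial intervals; the black dash is the share of the nuclear genome, in 101 bp windows for motifs. Right, the percent of summits at gene starts, in introns and between genes (y axis) by the number of other IDR summits within 10 kb (x axis), with the same intervals; the share at starts was 46.4% with none and 14.4% with 5 or more.

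Of 5 motifs searched at the summit, TGATTGAT alone differed past the threshold, and it did not in most other settings. Each search took both strands of the 50 bp to either side of a summit. TGACAG was present at 15.3% of clustered and 12.4% of isolated summits (odds ratio 1.28, interval 0.909 to 1.79, exact test adjusted p = 0.228). GAGAGA was at 29.1% and 32.4% (odds ratio 0.858, 0.662 to 1.11, exact test adjusted p = 0.311). For CANNTG, the E box, the shares were 51.4% and 48.7% (odds ratio 1.11, 0.879 to 1.41, exact test adjusted p = 0.382), and TGATTTAT at 3.46% and 2.43% (odds ratio 1.43, 0.685 to 2.88, exact test adjusted p = 0.325). None of these 4 passed the threshold, and the intervals give the sizes of difference the counts still allow. TGATTGAT was at 24 of 405 clustered summits (5.93%), against 25 of 1068 isolated ones (2.34%), with an odds ratio of 2.63 (1.42 to 4.86) and an adjusted p of 0.00322. With 1 peak per cluster, 3 of 106 had it (2.83%, odds ratio 1.22, 0.231 to 4.09, exact test adjusted p = 1), an interval that includes 2.63. Among only the peaks above the median signal it was at 1.37% of 73 clustered and 2.85% of isolated summits (odds ratio 0.474, exact test adjusted p = 0.911). Both settings rest on few summits with the site, so they cannot decide whether the difference holds. In 101 bp windows tiled over the nuclear genome the motifs were present in 3.41% (TGACAG), 5.18% (GAGAGA), 32.2% (CANNTG), 0.890% (TGATTTAT) and 0.665% (TGATTGAT), and over all 2714 peaks in 12.8%, 32.0%, 49.3%, 2.65% and 3.39%. GC content at the summit had a median of 45.5% in clustered and in isolated peaks.

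Of the 68 clusters with at least 4 peaks, TGACAG was found at 1 summit or more in 36 and at 2 or more in 12. GAGAGA was found in 49 and at 2 summits or more in 23, and TGATTGAT in 21. In position, 23 of the 68 were wholly intergenic and 12 wholly intronic. By the span from first to last summit, 37 overlapped a single protein-coding gene, 19 overlapped 2 or more and 12 overlapped none.

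Clustered peaks were somewhat stronger than isolated ones, which is given as a description since the same experiment chose them. The median signal in the IDR list was 103 (quartiles 74.9 and 152) for clustered and 90.2 (70.8 and 121.5) for isolated peaks. Replicate 1 had medians of 65.5 and 57.8 in these groups, and replicate 2 had 39.3 and 33.8. The distributions overlap widely in all 3 lists. Of clustered peaks 57.5% (52.6 to 62.4) were above the median signal of the IDR list, against 46.0% (43.0 to 49.0) of isolated peaks. Among the 100 nuclear peaks with the highest signal in the list, 37 were clustered and 17 isolated, where the whole nuclear list of 2732 held 405 and 1068. The rest of the 100 had 1 or 2 neighbours or lay near unc-62.

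**Figure D4:**
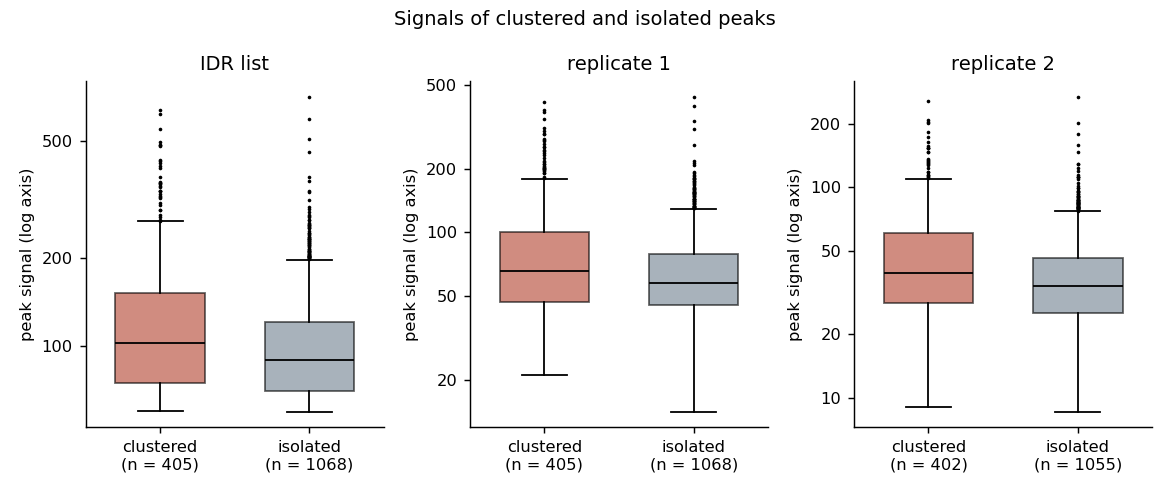
Peak signal (y axis, log scale) of clustered peaks (red, left) and isolated peaks (grey, right) in the IDR list, in replicate 1 and in replicate 2; boxes span the quartiles, the line is the median, whiskers are those of a standard box plot and dots are peaks beyond them. The medians are 103 and 90.2 in the IDR list, 65.5 and 57.8 in replicate 1 and 39.3 and 33.8 in replicate 2, and the boxes overlap in each list.

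Both replicates held most of the clustered peaks among their strongest. Of clustered peaks 91.4% (88.2 to 93.9) overlapped by at least 1 bp a peak among the 2732 strongest of replicate 1, against 87.7% (85.6 to 89.6) of isolated peaks. For replicate 2 the shares were 85.7% (81.9 to 88.9) and 78.0% (75.4 to 80.4). The ce11 list of replicate 2 holds 30000 peaks of a median width of 370 bp, and its ce10 list 29478 of 376 bp, and whether this moves its overlap shares or values was not tested. The authors derived the IDR list from these replicates, so high shares are partly built in. Across peaks the signals of the replicates had a Spearman's rho of 0.621 over 402 clustered peaks and 0.566 over 1055 isolated peaks, all from the same 2 libraries. Of the 72 clusters with at least 3 peaks, the strongest peak was the same in both replicates in 48 (66.7%). Within these clusters the highest IDR signal was a median of 2.85 times the lowest, from 1.09 to 8.67 times, the last at lin-39 and ceh-13.

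**Figure D5:**
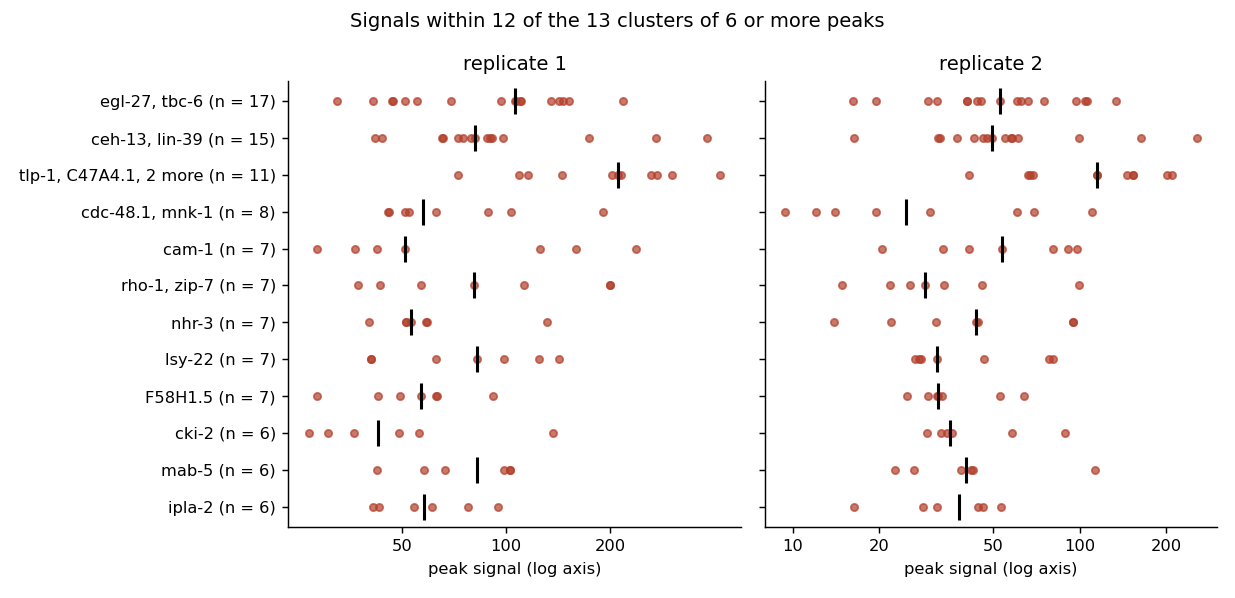
Signals of the clustered peaks (x axis, log scale) in 12 of the 13 clusters with 6 or more peaks (rows, named by their genes), in replicate 1 on the left and replicate 2 on the right. Each dot is a peak and the black bar the median of the cluster; the tlp-1 cluster has the highest median of the 12 in both replicates.

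The clusters were spread over all 6 nuclear chromosomes. Chromosome II had 22.1% of its peaks in clusters (92 of 417, interval 18.2 to 26.3), and chromosome X, with the most peaks per Mb at 36.4, had 12.4% (80 of 644, 9.97 to 15.2). In number of clusters they were close, with 19 on chromosome II and 21 on chromosome X. The egl-27 cluster alone held 17 of the 92 peaks, and the intervals count peaks of 1 cluster as independent. The shares on chromosomes I, III, IV and V were 13.8%, 15.3%, 14.4% and 12.8%. Weaker summits of the authors' pooled list, outside the IDR list, were also more numerous around clustered peaks, with a median of 6 within 10 kb, against 3 around isolated peaks.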

How the data were processed

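The data were chromatin immunoprecipitation peak lists from 2 biological replicates of 1 group of embryos. The authors deposited narrowPeak lists for each replicate, a pooled list and an IDR list, made with a control file, per the deposited file descriptions. For the aligner, the peak caller, the IDR threshold and the read depth, the sources used here name none. Column 7 of each deposited list holds the signal given by the authors' caller. From it, peaks were ranked within a list.

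Clustered and isolated peaks were found from the summits of the IDR list on ce11, 1-based. A replicate's value for a peak is that of its overlapping peak there. Clustered and isolated peaks were compared by two-sided Fisher's exact tests with Benjamini-Hochberg adjustment over 8 features and a threshold of 0.05, and shares have exact Clopper-Pearson 95% intervals. Genes came from the Ensembl annotation, release 115, and sequence from the NCBI reference of the same assembly. Intergenic and intron refer to protein-coding genes. The spacing of summits, which chose the peaks, and the authors' signals were described and not tested, while motifs and positions relative to genes, which the rule did not use, were tested. The members and the 16 gene lists were chosen with earlier results of these data known, and 2 listed symbols had no gene in the annotation. Named are the 12 clusters of most peaks, the 5 with the strongest peaks, and clusters that overlap Hox, homeobox, Wnt or muscle genes or a microRNA; other list members are named beside their list's count. Tests were run with Python 3.11.15, numpy 2.4.6, pandas 2.3.3 and scipy 1.17.1 and were checked on simulated data.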

Additional observations from a re-analysis of the deposited data

How the results depend on the processing

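The difference at gene starts kept its direction and passed the threshold in every alternative run, with odds ratios between 0.247 (at least 4 neighbours) and 0.408 (peaks above the median signal), adjusted p = 2.09e-13 and 0.0123 by Fisher's exact test. The intron difference failed in 1 alternative, with an odds ratio of 1.25 for peaks above the median signal, and the intergenic difference in that one (0.793) and with 1 peak per cluster (0.650). TGATTGAT passed only in part of the alternatives. Its odds ratio was 1.86 for a reach of 5 kb, 1.86 for at least 4 neighbours, 1.21 with 1 peak per cluster and 1.59 in a window of 25 bp to each side, none past the threshold. It was 0.474, the opposite direction, for peaks above the median signal, where only 1.37% of 73 clustered summits had the site. Without either replicate, when the 2732 strongest peaks of the other stood in for the IDR list, it was 1.62 to 1.86 and did not pass. Other motifs passed in 1 alternative each, TGATTTAT with at least 4 neighbours (odds ratio 2.50) and CANNTG in a window of 100 bp to each side (1.35).

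The numbers depend on the rule. A reach of 5 kb gave 56 clusters, 179 peaks and 71 genes, and 20 kb gave 201, 843 and 507. At least 2 neighbours gave 260, 895 and 487, and at least 4 gave 37, 187 and 66. The peaks above the median signal gave 17 clusters, 73 peaks and 31 genes. Of these peaks, 72.6% were above the median signal of that shorter list, and 100% were found in replicate 1 and 100% in replicate 2. When clusters were built without a replicate, the share of their peaks found in the replicate left out was 73.8% for replicate 1 and 76.2% for replicate 2, and the median GC content was 43.6% to 45.54%. The share found in replicate 2 was 80.7% with an overlap of at least 50% of the peak and 80.2% with a summit within 100 bp. Of the 106 clusters, 54 were found again with 5 kb and 98 with summits under 400 bp apart merged. The number was 74 without replicate 1, 80 without replicate 2, 37 with at least 4 neighbours and 17 with peaks above the median signal. The 13 clusters of 6 or more peaks were all found again in each of these except the last, where 8 of them were. Found again means at least 1 clustered summit there. The number of clustered summits was 3 instead of 8 at cdc-48.1 and mnk-1 and 4 instead of 7 at nhr-3 without replicate 1. It was 4 instead of 7 at F58H1.5 and 3 instead of 6 at cki-2 without replicate 2. The cpn-3 cluster was lost without replicate 1 and the mir-1 cluster without replicate 2. The cause of these differences was not tested. No paired analysis was possible because there was 1 group. Depth is unknown, so no limit on weak peaks can be given.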
